A study of Mus musculus with 48 samples.

Results

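The 10 genes described here encode the Nodal and Lefty signalling pathway. They are the antagonists Lefty1 and Lefty2, the ligand Nodal, its co-receptor Tdgf1, the receptors Acvr1b, Acvr2a and Acvr2b, the signal transducer Smad2, and the inhibitors Smad7 and Skil. They were taken by gene symbol from a table of 20171 genes counted in 48 RNA libraries of mouse embryonic stem cells. The lookup by symbol used no measured value, but the list was chosen with earlier results of these data known. Shares of these genes set beside those of all genes are therefore descriptions. All 10 had a row in the table and passed the filter on low counts in each comparison.

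Nodal is a secreted ligand of the TGF-beta family. Together with the co-receptor Tdgf1 (Cripto) it brings a type II receptor (Acvr2a or Acvr2b) and the type I receptor Acvr1b together, and the type I receptor phosphorylates Smad2, which enters the nucleus with Smad4. Nodal signalling switches on its own antagonists, since Lefty1 and Lefty2 are induced by it and block Nodal and its co-receptor, and Smad7 and Skil are negative regulators that TGF-beta signalling also induces. In the early embryo this circuit controls mesendoderm formation and left-right asymmetry, and embryonic stem cells express it. The Lefty mRNAs are known targets of an abundant microRNA seed family of embryonic stem cells.

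The libraries come from RIP-seq, in which RNA pulled down with a protein is sequenced. The protein was Tnrc6a, a GW182 protein that connects Argonaute and its microRNAs to the enzymes that repress and degrade mRNA. RNA was sequenced from cell lysates (inputs) and from what HA antibody recovered from them (immunoprecipitates, IPs). All cells were 129S6/SvEvTac embryonic stem cells with the GFP_5xT71BS reporter and a stably transfected FLAG-Cas9, grown on gelatin with serum and LIF, per the labels. There were 4 genotypes, namely this parental line without a tag (untagged), HA-AVI-Tnrc6a cells with an HA and AVI tag (called HA-Tnrc6a below), and tagged cells that were in addition Ago2-/- or Upf1-/-. Ago2 is an Argonaute protein, and Upf1 is the helicase of nonsense-mediated mRNA decay. Each genotype had 6 inputs and 6 IPs. The headers of the table number them 1 to 6, and libraries 1 to 3 and 4 to 6 were treated as 2 sets of 3, with each contrast formed within a set and averaged over both. The labels do not say how many clones stand behind a genotype, or whether libraries of a group came from separate cultures, so p-values measure the spread between these libraries, which may be technical.

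The microRNAs of this seed family are shown because their seed, bases 2 to 8 of the mature strand, is what pairs with target mRNAs. The label of Lefty1 and Lefty2 as microRNA targets names no microRNA, so their link to this seed is background and not a result. The RefSeq table (GRCm38.p6) holds 1738 mature mouse entries, and 5 of them carry the seed of miR-294-3p. Of these, 3 come from the chr7 cluster, between chr7:3218968 and 3220837, and 2 from the chr3 cluster, between chr3:127545275 and 127545687, all on the plus strand. They are written 5′ to 3′ with the seed in capitals.

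mmu-miR-291a-3p: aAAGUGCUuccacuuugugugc
mmu-miR-294-3p: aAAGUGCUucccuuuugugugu
mmu-miR-295-3p: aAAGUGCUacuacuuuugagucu
mmu-miR-302b-3p: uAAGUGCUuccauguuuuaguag
mmu-miR-302d-3p: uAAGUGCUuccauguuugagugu

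The chr7 members begin with a and the chr3 members with u, and all share AAGUGCU. The table holds no levels of mature microRNAs, and sites for these seeds in the Lefty transcripts were not searched.

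Library totals were 15384000 to 19595400 counts for inputs 1 to 3, 11471500 to 18344200 for IPs 1 to 3, 26458800 to 37179100 for inputs 4 to 6 and 25724100 to 73846000 for IPs 4 to 6. Of the targeted genes, Ago2 mRNA lay between 92.8 and 136 CPM (counts scaled to a common library size) in Ago2 knockout inputs and between 161 and 470 CPM in all other inputs. Upf1 mRNA was not lower in the inputs labelled Upf1 knockout (122 to 142 CPM) than in HA-Tnrc6a inputs (74.4 to 99.6 CPM), so directions for them refer to the label. Tnrc6a mRNA itself was enriched 219-fold in HA-Tnrc6a IPs over untagged cells (log2 fold change 7.77 ± 0.18, SE; edgeR adjusted p = 3.34e-18). The log2 value was 8.67 in libraries 1 to 3 and 6.87 in libraries 4 to 6, and a test of that difference passed (edgeR adjusted p = 0.0235). Some libraries stood apart from the others of their set by the chi-square per degree of freedom of their counts. They were HA-Tnrc6a input 3 (34.3 and 28.9 against inputs 1 and 2, which differed by 2.66), IP 4 of the label Upf1 knockout (26.3 and 36.2, with 4.69 between the others), HA-Tnrc6a IP 4 (22.5 and 19.0, with 7.84), untagged IP 5 (19.7 and 14.8, with 5.73) and untagged input 1 (10.7 and 9.48, with 1.96). Without HA-Tnrc6a input 3 the number of the 10 genes past the threshold was 7 for enrichment in HA-Tnrc6a cells, 5 for recovery in Ago2 knockout cells and 5 for their inputs, against 7, 6 and 5 with it. Enrichment for the label Upf1 knockout went from 10 genes to 8 without its IP 4 and to 8 without untagged input 1, and HA-Tnrc6a inputs against untagged inputs from 2 to 3 without untagged input 1. Without untagged IP 5 Acvr2a lost its call in enrichment for the label Upf1 knockout, at -0.26. All 10 embryonic stem cell markers were above 1 CPM in all genotypes (summed level 6472 to 7949 CPM), while means over inputs ran from 0.361 (T) to 6.90 CPM (Eomes) among 4 mesendoderm markers and from 0.371 (Foxa2) to 7.85 CPM (Gata4) among 6 endoderm markers. Sums of the trophoblast markers in the table (2 of 4) were 0.356 to 3.16 CPM, and those of the fibroblast markers (3 of 6) 20.5 to 36.7 CPM. Most of the fibroblast sum was Thy1, with a mean of 26.0 CPM over inputs, against 3.05 for Col1a1 and 0.271 for Col1a2.

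The level of each gene was first set in the HA-Tnrc6a inputs, in CPM per kilobase of the gene length in the table, as the lowest, median and highest of 6 inputs. Tdgf1 was by far the most abundant, at 371, 441 and 543 CPM per kilobase. Smad7 followed at 12.3, 18.4 and 25.9, and Acvr1b at 12.2, 14.1 and 14.2. Nodal had 7.11, 9.28 and 11.3 and Skil 7.86, 7.99 and 8.32. Smad2 stood at 5.68, 6.48 and 7.16 CPM per kilobase. The lowest 4 genes were Lefty2 at 3.07, 4.59 and 6.52, Acvr2b at 3.25, 3.87 and 4.52, Lefty1 at 1.64, 2.53 and 3.97, and Acvr2a at 1.39, 2.01 and 2.64 CPM per kilobase. Neighbours in this order overlapped except that Tdgf1 lay above Smad7, Acvr1b above Nodal, and Skil above Smad2 in all 6 inputs. The antagonists were therefore among the scarcer mRNAs of the pathway, below the ligand they block, with raw counts from 49 to 3749 for Lefty1 and 140 to 1993 for Lefty2 over the 48 libraries, against 11680 to 53460 for Tdgf1.

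**Figure D1:**
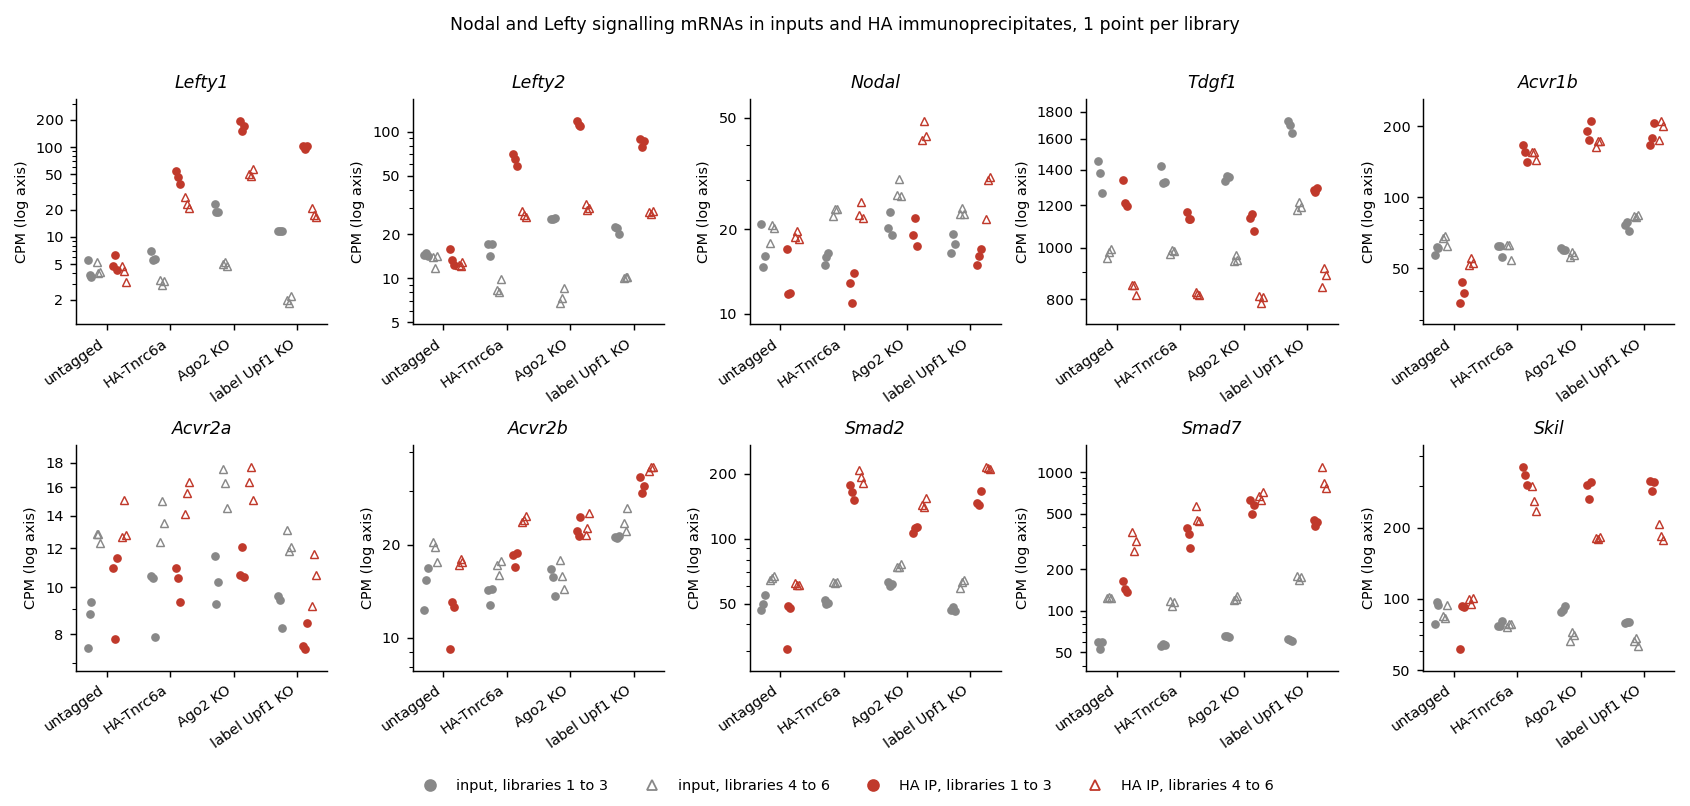
Abundance of the 10 mRNAs in CPM on log axes, 1 point per library, for inputs (grey) and HA IPs (red) of the 4 genotypes, with filled circles for libraries 1 to 3 and open triangles for libraries 4 to 6. Lefty1 IPs of tagged cells lie between 16.6 and 197 CPM, above all untagged IPs (3.12 to 6.37 CPM), whereas inputs and IPs of Acvr2a overlap in each genotype.

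Enrichment with Tnrc6a was the IP-over-input ratio of tagged cells against that of untagged cells, which gives what the beads hold without a tag. In HA-Tnrc6a cells 7 of the 10 mRNAs were enriched and none was depleted, with Lefty1 highest at 7.33-fold, followed by Lefty2, Skil, Smad2 and Acvr1b between 3.53-fold and 3.78-fold, Smad7 at 2.00-fold and Acvr2b at 1.63-fold. Nodal, Tdgf1 and Acvr2a did not pass the threshold. Of all 19993 genes tested, 29.8% passed as higher and 32.2% as lower at an edgeR adjusted p under 0.05. The median log2 fold change of the 10 genes was 1.41, against -0.10 over all genes.

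Lefty1 (ENSMUSG00000038793, chr1:180935022-180938401 in GRCm38) had IP levels of 54.6, 46.5 and 38.6 CPM in HA-Tnrc6a libraries 1 to 3 and 27.8, 23.3 and 20.9 CPM in libraries 4 to 6. Its HA-Tnrc6a inputs were at 6.99, 5.59, 5.71, 3.32, 2.89 and 3.22 CPM. Untagged cells had 4.75, 6.37, 4.32, 4.70, 4.21 and 3.12 CPM in IPs and 5.60, 3.78, 3.60, 5.25, 4.02 and 4.03 CPM in inputs. Thus all tagged IPs were above all tagged inputs, and untagged IPs and inputs overlapped. Divided by the mean input of its set, each HA-Tnrc6a IP was 6.34-fold to 8.95-fold above input (median 7.52), against 0.704-fold to 1.47-fold in untagged cells (median 1.03). The log2 fold change of Lefty1 was 2.87 ± 0.18 (SE; edgeR adjusted p = 6.87e-16), with 2.65 in libraries 1 to 3 and 3.09 in libraries 4 to 6, and it ranked 562 of 19993 genes.

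Lefty2 (ENSMUSG00000066652, chr1:180893108-180899107) lies 35914 bases from Lefty1 and encodes a closely related protein, so reads that fit both genes make their split uncertain. Lefty2 IPs of HA-Tnrc6a cells had 70.3, 65.6, 58.5, 28.6, 27.2 and 26.0 CPM over inputs of 17.0, 14.1, 17.0, 8.28, 8.02 and 9.90 CPM. In untagged cells the IPs (15.7, 13.3, 12.3, 12.3, 12.1 and 12.8 CPM) overlapped the inputs (14.4, 14.9, 14.1, 14.0, 11.8 and 14.2 CPM). No tagged IP overlapped a tagged input or an untagged IP. Its log2 fold change was 1.92 ± 0.11 (SE; edgeR adjusted p = 2.88e-17), 2.06 in libraries 1 to 3 and 1.77 in libraries 4 to 6. A lncRNA gene, Gm39715, overlaps Lefty1 in RefSeq, and no annotated gene overlaps Lefty2.

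Nodal (ENSMUSG00000037171, chr10:61417972-61425338) was not enriched, in contrast to its antagonists. Its HA-Tnrc6a IPs were at 12.9, 10.9, 14.0, 22.4, 25.1 and 22 CPM and the inputs at 14.9, 15.9, 16.5, 22.4, 23.7 and 23.6 CPM. The ranges of IPs and inputs overlapped, and the log2 fold change was 0.04 ± 0.12 (SE; edgeR adjusted p = 0.784), which 2 SE bound to -0.20 and 0.28. Tdgf1 (ENSMUSG00000032494, chr9:110939608-110946158), the co-receptor, had IPs of 1168, 1131, 1133, 825, 820 and 816 CPM and inputs of 1424, 1321, 1326, 974, 990 and 987 CPM, each IP below the inputs of its set. In untagged cells this was so for libraries 4 to 6, while IP 1 (1340 CPM) lay above input 3 (1266 CPM). Medians of the IP-over-input ratio were 0.834 in HA-Tnrc6a and 0.873 in untagged cells, and the log2 fold change was -0.07 ± 0.06 (SE; edgeR adjusted p = 0.354). With library totals in place of TMM Tdgf1 passed as lower, at -0.23.

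Among the receptors, the type I receptor Acvr1b and the type II receptors had different values. Acvr1b (ENSMUSG00000000532, chr15:101174072-101213684) had HA-Tnrc6a IPs of 166, 156, 140, 156, 156 and 144 CPM, against untagged IPs of 35.7, 43.5, 39.3, 51.7, 55.2 and 52.4 CPM, and inputs of both genotypes between 54.0 and 68.4 CPM. Tagged IPs exceeded all inputs, and untagged IPs were below most of them. The log2 fold change was 1.82 ± 0.08 (SE; edgeR adjusted p = 3.7e-20). Acvr2b (ENSMUSG00000061393, chr9:119401583-119442148) had tagged IPs of 18.5, 17.0, 18.9, 23.7, 24.1 and 24.8 CPM, which in each set exceeded the tagged inputs (12.8 to 14.4 and 16 to 17.8 CPM), and a log2 fold change of 0.70 ± 0.11 (SE; edgeR adjusted p = 1.17e-06). Acvr2a (ENSMUSG00000052155, chr2:48814109-48903264), the other type II receptor, ranged from 9.34 to 16.4 CPM in tagged IPs and from 7.91 to 15.0 CPM in tagged inputs, and its log2 fold change was -0.02 ± 0.13 (SE; edgeR adjusted p = 0.918). Acvr2a overlaps the gene Orc4 in RefSeq, so its counts are uncertain.

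The transducer and the inhibitors were all enriched. Smad2 (ENSMUSG00000024563) had HA-Tnrc6a IPs of 177, 165, 151, 207, 194 and 182 CPM over inputs of 49.8 to 62.9 CPM, and a log2 fold change of 1.85 ± 0.10 (SE; edgeR adjusted p = 5.55e-18). Skil (ENSMUSG00000027660, chr3:31095058-31122923), a repressor of Smad-dependent transcription, had IPs of 362, 334, 302, 298, 258 and 234 CPM over inputs of 76.2 to 80.7 CPM, and 1.92 ± 0.11 (SE; edgeR adjusted p = 2.33e-15). For both genes no tagged IP overlapped an input or an untagged IP. Smad7 (ENSMUSG00000025880), which blocks the type I receptor, had 398, 359, 284, 572, 453 and 443 CPM in HA-Tnrc6a IPs. It was the member that the beads also held without a tag, at 165, 143, 136, 368, 271 and 319 CPM in untagged IPs over untagged inputs of 53.3 to 125 CPM. Tagged and untagged IPs of Smad7 did not overlap within a set, but did across the sets. Its log2 fold change over that background was 1.00 ± 0.11 (SE; edgeR adjusted p = 7.19e-09).

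The background itself was tested as IP over input in untagged cells. Smad7 was higher in untagged IPs by 1.36 ± 0.07 (log2, SE; edgeR adjusted p = 7.28e-12), at rank 297 of 19299 genes. Acvr1b fell by 0.46, Acvr2b by 0.25 and Tdgf1 by 0.18 on the log2 scale (edgeR adjusted p = 1.73e-06, 0.036 and 0.00336), and the other genes did not pass. Acvr2b kept its call in 5 of the 12 fits that left out 1 library (-0.30 to -0.18). So 1 of 10 was higher and 3 of 10 lower, where 18.0% and 17.8% of all genes were. With library totals in place of TMM 20.9% of the genes that passed were higher, against 50.3% with TMM. Lefty1 (0.06 ± 0.15) and Lefty2 (-0.09 ± 0.08) were not recovered by the beads beyond their input in this test (edgeR adjusted p = 0.798 and 0.42).

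**Figure D2:**
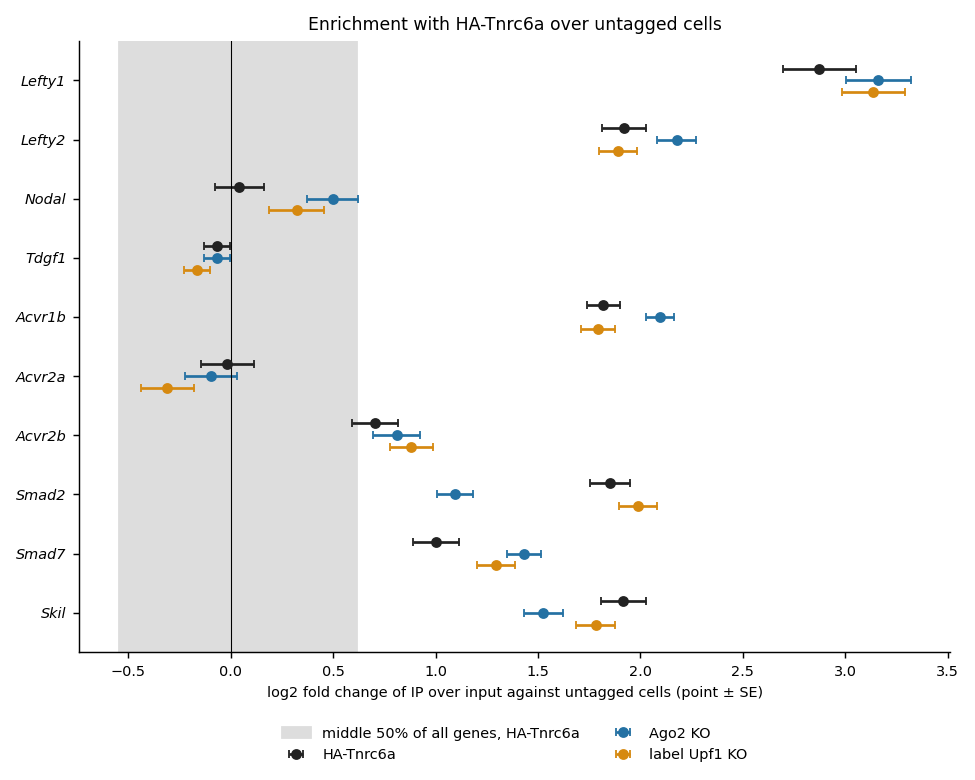
Log2 fold change of IP over input in each tagged genotype against untagged cells, with the standard error as bars, for the 10 genes. The grey band spans the middle 50% of all genes in HA-Tnrc6a cells (-0.55 to 0.62). Lefty1 lies farthest right at 2.87 to 3.16, and Nodal, Tdgf1 and Acvr2a lie within the band in all 3 genotypes.

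Enrichment of the pathway was also measured in both knockouts against the same untagged libraries, so these values are not independent of those above. In Ago2 knockout cells 8 of 10 genes were enriched and none depleted (31.5% and 33.2% of all genes), and the median of the 10 was 1.26 against -0.07 over all genes. Lefty1 was again highest, at 3.16 ± 0.16 (log2, SE), a fold of 8.95, and Lefty2 was at 2.18 ± 0.10. Acvr1b had 2.10 ± 0.07, Skil 1.53 ± 0.09, Smad7 1.43 ± 0.08, Smad2 1.10 ± 0.09, Acvr2b 0.81 ± 0.11 and Nodal 0.50 ± 0.13, the last with an edgeR adjusted p of 0.000803. Nodal was at 0.23 in libraries 1 to 3 and 0.77 in libraries 4 to 6, and it did not pass in libraries 1 to 3 alone. Tdgf1 (-0.07 ± 0.06) and Acvr2a (-0.10 ± 0.13) did not pass (edgeR adjusted p = 0.352 and 0.52), although Tdgf1 passed as lower with library totals, at -0.22.

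In cells labelled Upf1 knockout 8 genes were enriched and 2 depleted (31.8% and 31.8% of all genes, or 36.4% of the calls higher with library totals in place of 50.0%), with a median of 1.54 against -0.06 over all genes. Lefty1 had 3.14 ± 0.15 (log2, SE), Smad2 1.99 ± 0.09, Lefty2 1.89 ± 0.09, Acvr1b 1.79 ± 0.08, Skil 1.78 ± 0.10, Smad7 1.30 ± 0.09 and Acvr2b 0.88 ± 0.10. Tdgf1 fell by 0.17 and Acvr2a by 0.31 on the log2 scale (edgeR adjusted p = 0.0252 and 0.0355). Nodal was at 0.32 ± 0.13 (edgeR adjusted p = 0.0381), a call that was lost with RLE size factors, library totals, 1 fit of all 48 libraries, DESeq2 and each set alone, where it ranged from 0.06 to 0.26. Of the 24 fits that left out 1 library, Nodal kept its call in 9 (0.17 to 0.40 over all 24), Acvr2a in 15 and Tdgf1 in 21.

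Few of the 10 genes differed in enrichment between the sets. In HA-Tnrc6a cells none of the 10 genes differed between libraries 1 to 3 and 4 to 6 in a test of that difference, which 0.365% of all genes passed. In Ago2 knockout cells Smad7 did, at 1.75 in the first set and 1.11 in the second (edgeR adjusted p = 0.0162; 6.15% of all genes passed). In cells labelled Upf1 knockout Skil did, at 2.16 and 1.40 (edgeR adjusted p = 0.0305; 1.68% of all genes).

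The pathway beyond these 10 genes was examined in 5 lists. Of 17 other ligands and antagonists tested in HA-Tnrc6a cells, 5 were enriched and 5 depleted (median -0.05), near the 29.8% and 32.2% of all genes. Gdf11, a TGF-beta family ligand, had the highest value of the lists at 5.88 ± 0.23 (log2, SE), Inhbb, an activin subunit, had 3.71 ± 0.09, and Furin, a protease that matures such ligands, had 1.60 ± 0.09, while Inha was at -0.70 ± 0.27, Ltbp3 at -0.68 ± 0.12 and Fstl1 at -0.59 ± 0.09. Of 7 other receptors and co-receptors 6 were enriched and none depleted (median 0.92), led by the TGF-beta receptors Tgfbr2 at 3.73 ± 0.27 and Tgfbr1 at 2.65 ± 0.09 and by the pseudoreceptor Bambi at 1.96 ± 0.14. Of 17 other Smads and Smad regulators 13 were enriched and 3 depleted (median 0.56), with Pmepa1 at 3.04 ± 0.10, the inhibitor Smad6 at 2.22 ± 0.20 and the corepressor Tgif1 at 1.39 ± 0.08, and with Usp15 at -0.44 ± 0.06, Foxh1 at -0.34 ± 0.12 and Trim33 at -0.21 ± 0.09. Trim33 lost its call in most fits that left out 1 library (-0.21 to -0.15) and in libraries 1 to 3 alone (-0.10). Inha lost it without HA-Tnrc6a input 1, 3 or 5 and without untagged IP 2 or 4 (-0.65 to -0.59) and in libraries 1 to 3 alone (-0.38), and Foxh1 in each set alone (-0.41 and -0.23).

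The BMP branch, which signals through other Smads, had 4 of 15 genes enriched, near the 29.8% of all genes, and 3 depleted, where 32.2% of all genes were (median 0.44), with Smad5 at 1.32 ± 0.09, Id4 at 0.84 ± 0.19 and Bmpr2 at 0.82 ± 0.15, and Chrd at -0.92 ± 0.16, Id2 at -0.87 ± 0.14 and Bmp4 at -0.32 ± 0.10. Of 10 mesendoderm genes that respond to Nodal 5 were enriched and none depleted (median 0.59), among them Gata6 at 0.79 ± 0.18 and Eomes at 0.45 ± 0.14. With library totals 4 were enriched and 1 depleted, and Eomes did not pass. In libraries 1 to 3 alone Bmp4 (-0.33), Id4 (0.77) and Eomes (0.26) did not pass. All-gene medians moved from -0.10 with TMM to -0.25 with library totals in HA-Tnrc6a cells, from -0.07 to -0.22 in Ago2 knockout cells and from -0.06 to -0.32 in cells labelled Upf1 knockout.

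For the effect of Ago2 loss, recovery (the ratio of IP to input) was compared between Ago2 knockout and HA-Tnrc6a cells. Smad2 and Skil were recovered less, by 1.70-fold and 1.32-fold, whereas Nodal, Smad7, Acvr1b and Lefty2 were recovered more, by 1.19-fold to 1.37-fold. Thus 4 of 10 genes were higher and 2 lower, where 9.09% and 12.3% of all 19995 genes were, and the median of the 10 was 0.18 against -0.04 over all genes. None of the 10 differed between the sets in this comparison, a test that 0.195% of all genes passed.

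Smad2 had the largest change of recovery among the 10 genes. Its Ago2 knockout IPs were at 106, 112, 113, 143, 140 and 154 CPM, below the HA-Tnrc6a IPs of the same set (151 to 177 and 182 to 207 CPM), although the Ago2 knockout inputs (60.2 to 63.0 and 73.9 to 75.9 CPM) were above the HA-Tnrc6a inputs (49.8 to 51.9 and 61.9 to 62.9 CPM). IPs and inputs therefore moved in opposite directions with no overlap within a set. The IP-over-input ratio was 1.73 to 2.06 (median 1.86) in Ago2 knockout and 2.91 to 3.48 (median 3.18) in HA-Tnrc6a cells, and the log2 fold change was -0.76 ± 0.06 (SE; edgeR adjusted p = 1.77e-11), -0.85 and -0.68 in the sets. Skil IPs of Ago2 knockout cells were at 304, 263, 311, 181, 178 and 183 CPM against 362, 334, 302, 298, 258 and 234 CPM, overlapping in the first set only, and its log2 fold change was -0.40 ± 0.07 (SE; edgeR adjusted p = 0.000121), -0.39 and -0.40 in the sets.

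The ligand Nodal had Ago2 knockout IPs of 19.1, 21.9, 17.4, 41.6, 48.9 and 43.1 CPM, each above the HA-Tnrc6a IPs of its set. Its recovery was higher by 0.45 ± 0.10 (log2, SE; edgeR adjusted p = 0.000734), 0.22 in libraries 1 to 3 and 0.68 in libraries 4 to 6, and it did not pass in libraries 1 to 3 alone. Smad7 had 0.42 ± 0.09 (edgeR adjusted p = 0.00104) with Ago2 knockout IPs of 626, 500, 583, 674, 628 and 717 CPM, all above the HA-Tnrc6a IPs of their set. Acvr1b had 0.27 ± 0.07 (edgeR adjusted p = 0.00527), with 0.31 in libraries 1 to 3 and 0.22 in libraries 4 to 6. In a fit of libraries 1 to 3 alone Acvr1b did not pass, at 0.29.

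Recovery of the Lefty mRNAs was not lower in Ago2 knockout cells. Lefty1 Ago2 knockout IPs were at 197, 149, 171, 50.1, 47.4 and 56.7 CPM, each above the HA-Tnrc6a IPs of its set. The inputs were also higher within each set (23.2, 18.8, 19.1, 5.07, 5.23 and 4.77 CPM). IP-over-input ratios of 7.34 to 11.3 (median 9.56) overlapped those of HA-Tnrc6a cells, and the log2 fold change of recovery was 0.29 ± 0.13 (SE; edgeR adjusted p = 0.136), which 2 SE bound to 0.02 and 0.56. Lefty1 passed in libraries 4 to 6 alone, at 0.44, and without HA-Tnrc6a IP 1, at 0.35. The IPs compared without inputs gave 1.53, but this value also holds the input difference of Lefty1 (1.21) and is not a recovery. Lefty2 had 0.25 ± 0.09 (edgeR adjusted p = 0.0402), and this call was lost with RLE size factors, in each set alone, and without HA-Tnrc6a input 3 (0.23), and it was kept in 12 of the 24 fits that left out 1 library. The remaining genes did not pass, with Acvr2b at 0.10 ± 0.09, Acvr2a at -0.09 ± 0.12 and Tdgf1 at -0.01 ± 0.06 (edgeR adjusted p = 0.506, 0.664 and 0.959).

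In cells labelled Upf1 knockout none of the 10 genes changed its recovery against HA-Tnrc6a cells by edgeR, where 2.92% of all 19966 genes were higher and 1.57% lower, and none differed between the sets (0.115% of all genes). At an unadjusted p under 0.05 there were 5 genes, and DESeq2 called 1, Tdgf1 at -0.13. With library totals edgeR called Skil, at -0.23, and without IP 6 of the label Upf1 knockout it called Smad7, at 0.33. The log2 values ran from -0.31 ± 0.12 for Acvr2a to 0.28 ± 0.10 for Smad7 (edgeR adjusted p = 0.164 and 0.107). Lefty1 was at 0.26 ± 0.12 and Lefty2 at -0.04 ± 0.09 (edgeR adjusted p = 0.283 and 0.881), Nodal at 0.27 ± 0.11 and Smad2 at 0.12 ± 0.06 (0.198 and 0.344). Both recovery comparisons share the HA-Tnrc6a libraries, and the difference between the knockouts was not tested. Of all genes past the threshold here 65.1% were higher with TMM, 52.8% with RLE size factors and 22.4% with library totals.

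**Figure D3:**
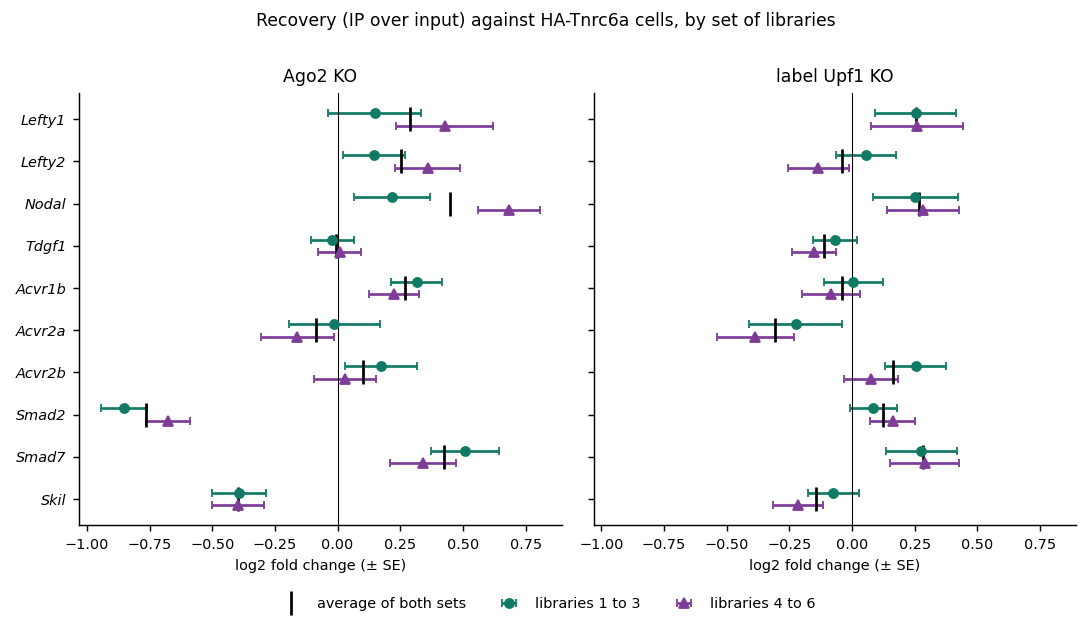
Log2 fold change of recovery (IP over input) against HA-Tnrc6a cells, for Ago2 knockout and for the label Upf1 knockout, with standard errors, for libraries 1 to 3 (circles) and 4 to 6 (triangles). The black ticks are averages of both sets. Smad2 lies at -0.85 and -0.68 and Skil at -0.39 and -0.40 for Ago2 knockout, and each average for the label Upf1 knockout is between -0.31 and 0.28.

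Of the other pathway genes, recovery in Ago2 knockout cells was higher for 4 and lower for 2 of 17 ligands and antagonists (Gdf15 at 1.05 ± 0.12, Furin at -0.44 ± 0.08; log2, SE). Among receptors it was higher for 2 and lower for 2 of 7 (Tgfbr2 at 0.72 ± 0.19, Tgfbr1 at -0.31 ± 0.07), and among Smads and their regulators higher for 7 and lower for 1 of 17 (Tgif2 at 0.79 ± 0.07, Ski at -0.29 ± 0.07). Ski is the close relative of Skil. In the BMP branch 4 of 15 were higher and 1 lower (Id1 at 0.95 ± 0.10, Smad5 at -0.53 ± 0.07), and 1 of 10 mesendoderm genes was higher. The list medians were -0.03, 0.06, 0.13, 0.27 and 0.10, against -0.04 over all genes, of which 9.09% were higher and 12.3% lower. Tgfbr2 did not pass in libraries 4 to 6 alone (0.45).

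The inputs give the levels of these mRNAs before precipitation. In Ago2 knockout cells 5 of the 10 genes were higher and none lower than in HA-Tnrc6a cells, where 15.7% and 15.2% of all 19641 genes were. Lefty1 rose 2.31-fold, Nodal 1.25-fold, Smad2 1.20-fold, Lefty2 1.17-fold and Smad7 1.12-fold. The median of the 10 was 0.17 against -0.01 over all genes. In such bulk samples more cells of a type and more RNA per cell cannot be told apart.

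The rise of Lefty1 depended on the set. In libraries 1 to 3 its inputs were at 23.2, 18.8 and 19.1 CPM in Ago2 knockout against 6.99, 5.59 and 5.71 CPM in HA-Tnrc6a cells, and in libraries 4 to 6 at 5.07, 5.23 and 4.77 against 3.32, 2.89 and 3.22 CPM. The groups did not overlap in either set, but 1 of the untagged inputs 4 to 6 (5.25, 4.02 and 4.03 CPM) reached the Ago2 knockout level of its set. The log2 fold change was 1.74 ± 0.12 in the first set and 0.67 ± 0.13 in the second, on average 1.21 ± 0.09 (SE; edgeR adjusted p = 5.51e-15), at rank 67 of all genes. The difference between the sets passed for Lefty1, Lefty2 and Skil (edgeR adjusted p = 6.11e-05, 3.75e-05 and 7.51e-05), 3 of 10 genes where 5.94% of all genes did.

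Lefty2 inputs were at 25.3, 25.2 and 25.6 CPM in Ago2 knockout against 17.0, 14.1 and 17.0 CPM in HA-Tnrc6a cells in libraries 1 to 3, and at 6.81, 7.31 and 8.60 against 8.28, 8.02 and 9.90 CPM in libraries 4 to 6. It was thus higher without overlap in the first set (0.66 ± 0.10) and overlapping in the second (-0.21 ± 0.10), and the average of 0.23 ± 0.07 (SE; edgeR adjusted p = 0.0114) does not describe both. Without HA-Tnrc6a input 2 or Ago2 knockout input 6 the call of Lefty2 was lost, at 0.18 and 0.17. Skil was at 0.21 in the first set and -0.15 in the second, and each passed alone. Nodal (0.32 ± 0.06) and Smad2 (0.27 ± 0.03) rose in both sets, by 0.40 and 0.25 and by 0.28 and 0.25 (edgeR adjusted p = 1e-05 and 3.96e-09). Smad7 rose by 0.16 ± 0.03 (edgeR adjusted p = 5.94e-05), a call lost in 1 fit of all 48 libraries. Tdgf1 (-0.03 ± 0.02), Acvr1b (-0.03 ± 0.04), Acvr2b (0.03 ± 0.06) and Acvr2a (0.18 ± 0.08) did not pass (edgeR adjusted p = 0.424, 0.535, 0.741 and 0.0742).

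Between Ago2 knockout and HA-Tnrc6a inputs the sums of endoderm and neural markers differed, while those of mesendoderm markers overlapped. The summed level of 6 endoderm markers was 7.45 to 9.41 CPM in Ago2 knockout inputs, with 3 of 6 above 1 CPM, and 35.3 to 39.1 CPM in HA-Tnrc6a inputs, with 5 of 6 above 1 CPM. Untagged inputs had 12.7 to 41.3 CPM and inputs labelled Upf1 knockout 12.7 to 60.2 CPM. Foxa2 was the lowest of them, and none had a mean of 0. The sum of 4 neural markers was 109 to 118 CPM in Ago2 knockout inputs, 80.3 to 87.9 CPM in HA-Tnrc6a inputs, 87.2 to 107 CPM in untagged inputs and 49.8 to 65.8 CPM in inputs labelled Upf1 knockout, with Tubb3 the highest and Pax6 the lowest. The part of such cells in the input values was not tested. Sums of 4 mesendoderm markers overlapped between Ago2 knockout (6.54 to 8.28 CPM) and HA-Tnrc6a inputs (6.55 to 8.33 CPM), and were 8.77 to 16.7 CPM in inputs labelled Upf1 knockout.

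Inputs labelled Upf1 knockout had 5 higher genes and 1 lower against HA-Tnrc6a inputs, where 29.5% and 29.0% of all 19444 genes were, so that calls were common in general. Acvr2b rose 1.48-fold, Acvr1b 1.33-fold, Smad7 1.29-fold, Lefty2 1.24-fold and Tdgf1 1.23-fold. Tdgf1 inputs were at 1731, 1696, 1641, 1177, 1219 and 1192 CPM, each above the HA-Tnrc6a inputs of its set, with 0.31 and 0.30 (log2) in the sets (0.30 ± 0.02 on average, SE; edgeR adjusted p = 6.15e-17). Acvr2b (0.56 ± 0.06) and Acvr1b (0.41 ± 0.04) did not overlap with HA-Tnrc6a inputs within either set (edgeR adjusted p = 4.27e-12 and 2.11e-13). Lefty2 was at 0.31 ± 0.07 (edgeR adjusted p = 6.6e-05), with 0.41 and 0.22 in the sets. In libraries 4 to 6 alone Lefty2 did not pass, at 0.22, and in libraries 1 to 3 alone Smad7 did not, at 0.11.

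Lefty1 went in opposite directions in the sets of inputs labelled Upf1 knockout. It was at 11.6, 11.6 and 11.8 CPM in libraries 1 to 3, above the HA-Tnrc6a inputs (0.93 ± 0.13), and at 1.99, 1.86 and 2.23 CPM in libraries 4 to 6, below them (-0.61 ± 0.15). The average of 0.16 ± 0.10 did not pass (edgeR adjusted p = 0.173), whereas the difference between the sets did (edgeR adjusted p = 1.13e-07). Smad7 also differed between the sets, at 0.11 and 0.62, as did Skil, at 0.02 and -0.22 (edgeR adjusted p = 7.44e-09 and 0.00371), so 3 of 10 genes did where 11.6% of all genes did. Skil fell by 0.10 on average (edgeR adjusted p = 0.00249), a call lost with library totals, in 1 fit of all 48 libraries and in libraries 1 to 3 alone. Nodal, Acvr2a and Smad2 were at 0.08 ± 0.05, -0.11 ± 0.07 and -0.06 ± 0.03 and did not pass (edgeR adjusted p = 0.191, 0.226 and 0.134).

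**Figure D4:**
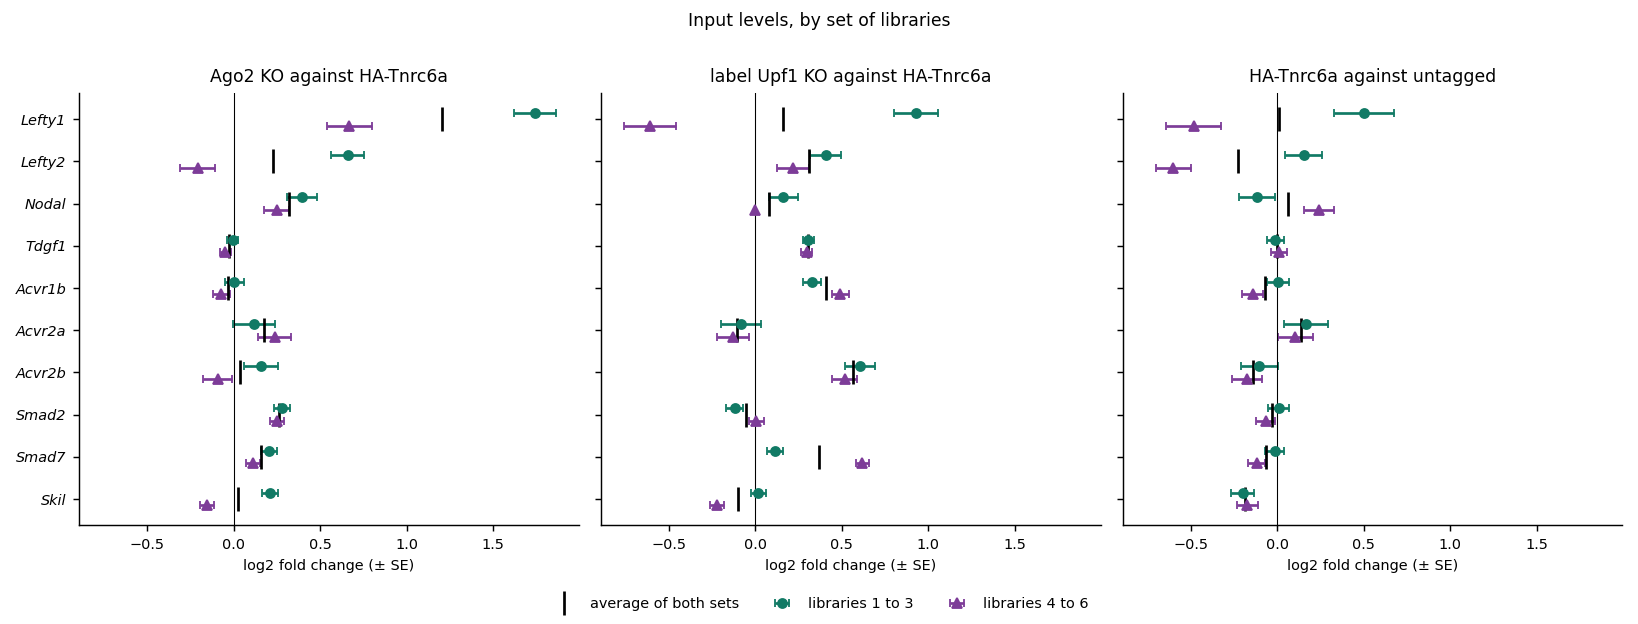
Log2 fold change of input levels with standard errors for the 10 genes in libraries 1 to 3 (circles) and 4 to 6 (triangles), with black ticks for the average, and no bar for Nodal in libraries 4 to 6 of the label Upf1 knockout, where no SE could be computed. The sets of Lefty1 lie apart in all 3 comparisons, at 1.74 and 0.67, at 0.93 and -0.61, and at 0.50 and -0.48, while those of Tdgf1 lie together.

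The HA-Tnrc6a line, the reference of both knockouts, was compared with untagged cells in the same way. Of the 10 genes none was higher and Lefty2 and Skil were lower (7.74% and 7.67% of all 19407 genes). Lefty2 was at 0.15 ± 0.11 in libraries 1 to 3 and -0.60 ± 0.10 in libraries 4 to 6, on average -0.22 ± 0.07 (edgeR adjusted p = 0.0388). Its call was lost in 6 of the 12 fits that left out 1 library (-0.21 to -0.18). Lefty1 was at 0.50 ± 0.17 and -0.48 ± 0.16, on average 0.01 ± 0.12 (edgeR adjusted p = 0.97). The difference between the sets passed for both Lefty genes (edgeR adjusted p = 0.0162 for Lefty1 and 0.00372 for Lefty2), 2 of 10 genes where 3.40% of all genes did. Skil fell by 0.19 (edgeR adjusted p = 0.00404), by 0.20 and 0.17 in the sets, a call lost in 1 fit of all 48 libraries and in libraries 1 to 3 alone. Lefty levels of the tagged lines thus differed between the sets, from 5.59 to 23.2 CPM for Lefty1 inputs 1 to 3 and from 1.86 to 5.23 CPM for inputs 4 to 6, while untagged inputs of both sets lay between 3.60 and 5.60 CPM.

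Among the other pathway genes, inputs of Ago2 knockout cells had 6 higher and 5 lower of 17 ligands and antagonists (Fst at 0.80 ± 0.12, Ltbp3 at -0.58 ± 0.09; log2, SE), 3 higher and 1 lower of 7 receptors (Tgfbr1 at 0.29 ± 0.04, Acvrl1 at -0.52 ± 0.12) and 6 higher and 3 lower of 17 Smads and regulators (Smad6 at 0.94 ± 0.10, Smad4 at -0.22 ± 0.03). The BMP branch had 3 of 14 higher and 3 lower (Id4 at 0.52 ± 0.10, Id1 at -1.0 ± 0.06), and mesendoderm genes 1 of 9 higher and 3 lower, with Gata6, which is also an endoderm marker, at -3.23 ± 0.17. The list medians in this order were 0.10, 0.21, 0.02, 0.00 and -0.19, against -0.01 over all genes, of which 15.7% were higher and 15.2% lower. Acvrl1 (-0.51) and Id4 (0.23) did not pass in libraries 1 to 3 alone.

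In inputs labelled Upf1 knockout the counts were 9 higher and 4 lower of 17 ligands (Gdf1 at 0.81 ± 0.09, Fst at -0.72 ± 0.15), 1 and 2 of 7 receptors (Acvrl1 at 0.56 ± 0.10, Tgfbr3 at -0.41 ± 0.15), 11 and 2 of 17 Smads and regulators (Smad6 at 0.88 ± 0.09, Usp9x at -0.27 ± 0.03), 5 and 3 of 13 BMP genes (Bmp4 at 0.57 ± 0.04, Id2 at -1.72 ± 0.12) and 2 and 2 of 9 mesendoderm genes (Eomes at 0.88 ± 0.08, Sox17 at -0.67 ± 0.16). Gdf1 overlaps Upf1 and Cers1 in RefSeq, so its counts are uncertain, and Sox17 was at 0.45 in libraries 4 to 6 alone. The medians were 0.16, -0.06, 0.15, 0.08 and -0.15, against -0.02 over all genes, of which 29.5% were higher and 29.0% lower, so several of these counts are near the share of all genes. Acvrl1 (0.20) did not pass in libraries 1 to 3 alone, Usp9x in 1 fit of all 48 libraries (-0.27), and Tgfbr3 in each set alone (-0.50 and -0.31) and without HA-Tnrc6a input 1 or 5 or input 3 or 5 of the label (-0.36 to -0.30).

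Across the 16 group means of log2 CPM (genotype, fraction and set), Lefty1 and Lefty2 followed each other with a Pearson's r of 0.953. Among 14331 genes the values most like those of Lefty1 were Fam169b (0.972), Rragd (0.965) and Tpm1 (0.960), and those most like Lefty2 were Rab18 (0.975), Rgs16 (0.965) and Trim63 (0.963). The 16 points share genotypes and library sets, and most of their spread lies between tagged IPs and the rest, so these are descriptions with no test.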

How the data were processed

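RIP-seq inputs and IPs were sequenced from a stranded total RNA kit, per the labels' protocols. STAR 2.7.3a, bcl2fastq 2.20 and the builds GRCm38 and mm10 are named in the submitters' processing notes; the counting tool, its strand setting and the annotation are not given in the sources used here. The authors deposited raw counts of reads for each gene, not normalized, in 48 columns, and a gene length (used only for levels per kilobase). A further 48 per-library columns headed RPKM were not used. Headers do not name the experiment that the labels give, so the 2 sets (libraries 1 to 3 and 4 to 6) stand in its place and no library is tied to a single labelled sample.

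Counts were fitted with edgeR 4.0.16 (limma 3.58.1, R 4.3.3): TMM scaling, filterByExpr with a minimum count of 10, robust quasi-likelihood F-tests (two-sided), 1 coefficient per genotype, fraction and set, contrasts averaged over both sets, and Benjamini-Hochberg adjustment over all genes tested, with a threshold of 0.05. SE is the log2 fold change divided by the square root of F. CPM uses TMM over all 48 libraries (prior count 2 for log2 values). Counting error is set by the library totals, and without molecular identifiers a read need not be its own molecule. Same-numbered inputs and IPs did not deviate together (mean r 0.0203 over 24 pairs, 1 over 0.1), and the main fits used no pairing by number. Such weak correlations cannot exclude that same-numbered libraries came from the same lysate. The scripts were tested on simulated data.

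The members and lists were chosen with earlier results of these data known. The 10 members are named throughout; for HA-Tnrc6a enrichment each list also gives the genes past the threshold, with a mean log2 CPM not under 1, that changed most (3 each way), and for other comparisons 1 each way. For Lefty1 and Lefty2 the 3 genes with the highest r are named. Marker lists for neural cells, trophoblast and fibroblasts were also summed over inputs. Alternatives were RLE size factors, library totals, no count filter, DESeq2 1.42.0, 1 fit of all 48 libraries, a replicate block, each set alone, IPs without inputs and each library left out in turn.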

Additional observations from a re-analysis of the deposited data

Results flagged for a closer look

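Input differences of the Lefty genes differed between libraries 1 to 3 and 4 to 6 in tests of that difference (second set less first, log2). For Lefty1 it was -1.08 in Ago2 knockout and -1.54 in cells labelled Upf1 knockout against HA-Tnrc6a cells, and -0.99 in HA-Tnrc6a against untagged cells. For Lefty2 it was -0.87 in Ago2 knockout against HA-Tnrc6a cells and -0.75 in HA-Tnrc6a against untagged cells. These comparisons share the HA-Tnrc6a inputs. Skil differed by -0.36 in Ago2 knockout inputs and by -0.24 in inputs labelled Upf1 knockout, and Smad7 by 0.51 in the latter. Enrichment over untagged cells differed by -0.65 for Smad7 in Ago2 knockout cells and by -0.76 for Skil in cells labelled Upf1 knockout.

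A single library lay far from the other 5 of its genotype and fraction for Lefty2 in untagged IP 1, at 15.7 CPM, for Lefty2 in untagged input 5, at 11.8 CPM, and for Skil in untagged IP 1, at 61.6 CPM. These are 3 of 80 groups of 6 libraries. The rule flags about 1 in 20 groups by chance only if all 6 libraries share a common level. Each group pools both library sets, and their levels can differ. Smad7 in HA-Tnrc6a inputs, for example, had means of 56.7 CPM in the first set and 114 CPM in the second. That chance rate therefore does not apply here, and the number of flagged groups was not compared with chance.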

How the results depend on the processing

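Most values kept direction and side of the threshold. Of the counts of genes past the threshold, recovery in Ago2 knockout cells went from 6 to 3 with libraries 1 to 3 alone. Recovery in cells labelled Upf1 knockout went from 0 to 1 with library totals, DESeq2 and the replicate block. It was 0 to 1 when single libraries were left out. With IPs without inputs, which keep input differences in the value and so do not measure recovery, 8 genes passed for this label. HA-Tnrc6a inputs against untagged inputs went from 2 to 1 with library totals and with 1 fit of all 48 libraries, to 0 with libraries 1 to 3 alone and 6 with libraries 4 to 6 alone, and was 1 to 3 when single libraries were left out. Untagged IP over input went from 4 to 7 with library totals and to 2 with libraries 1 to 3 alone. Leave-one-out ranges of the other counts were 3 to 5 (untagged IP over input), 8 to 10 (enrichment, label Upf1 knockout), 4 to 6 and 6 to 7 (inputs of Ago2 and label Upf1 knockout) and 5 to 7 (recovery in Ago2 knockout), with 7 and 8 throughout for enrichment in HA-Tnrc6a and Ago2 knockout cells. With the replicate block 4 calls were gained, Lefty1 (0.29) in Ago2 and Smad7 (0.29) in label Upf1 knockout recovery and Nodal (-0.20) and Smad2 (-0.19) in untagged IP over input, and it changed no other call.

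Signs turned with IPs without inputs for Acvr2a (0.25) in Ago2 knockout and Tdgf1 (0.066) in label Upf1 knockout enrichment, for Lefty2 (0.23) and Acvr1b (0.33) in label Upf1 knockout recovery, and for Tgfbr1 (0.017) and Id1 (-0.017) in Ago2 knockout recovery. With libraries 4 to 6 alone they turned for Lefty2 (-0.20) and Skil (-0.15) in Ago2 knockout inputs, for Lefty1 (-0.61) and Sox17 (0.45) in label Upf1 knockout inputs and for Lefty1 (-0.48) in HA-Tnrc6a against untagged inputs. With libraries 1 to 3 alone they turned for Skil (0.019) in label Upf1 knockout and Lefty2 (0.16) in HA-Tnrc6a inputs. IPs compared without inputs also hold the input difference of the genotypes, so they do not measure the same quantity. Why the sets differ was not tested. Lefty1, with as few as 49 counts in a library, had the largest standard errors of enrichment among the 10 genes.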
